A study of Bos taurus with 6 samples.

Results

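The Krüppel-like factors (KLFs) and early growth response factors (EGRs) are zinc finger transcription factors, and 10 of them were looked up by symbol in a transcriptome of bovine vaginal epithelial cells (BVECs). A row of the expression table was taken where its gene name equalled the symbol, with the row of the higher mean used where a symbol had several. Of the 10 genes, 9 were found among 18014 features, namely KLF3, KLF4, KLF5, KLF6, KLF9, KLF10, KLF11, EGR1 and EGR3. KLF2 has no row under that name and was not analysed here. The cells were primary cultures from vaginal tissue of healthy young cows. The study notes a small quantity of fibroblasts in the primary culture before subculturing, and does not say whether the sequenced cells held any. Treated BVECs received SQ0048, a Lactobacillus strain isolated from the bovine vagina, at 1000000000 CFU/ml for 4 h, and control BVECs received medium alone. Each group had 3 libraries. The study calls them biological replicates without saying whether the cultures or the animals were separate, so p-values measure only the spread between the libraries, part of which may be technical.

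KLFs bind GC-rich elements and CACCC boxes through a conserved set of C2H2 zinc fingers, and several of them compete for the same sites while recruiting either activators or repressors. In mouse and human epithelia, KLF4 is best known from differentiated cells that have left the cell cycle and KLF5 from dividing basal cells, and the pair often act in opposite directions on shared genes. EGR1 and EGR3 are immediate early genes, switched on within minutes of growth factor or stress signals through the ERK kinases and the serum response factor (SRF). KLF6 and KLF10 also respond quickly to outside signals, KLF10 and its relative KLF11 having been found as genes induced by TGF-beta.

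Expression was given in FPKM, which corrects fragment numbers for exon length and for the size of the library, so levels of different genes can be set side by side per length. By mean FPKM over the 6 libraries, KLF6 stood above 94.9% of the tested features or level with them, KLF10 above 84.7%, KLF5 above 75.8%, KLF4 above 74.4% and KLF3 above 55.0%. The other members were scarce, with KLF11 at 21.8%, EGR1 at 17.8% and KLF9 at 4.62%. In control BVECs the order of levels ran from KLF6 through KLF10, KLF5, KLF4 and KLF3 to the scarce genes, and of the 5 abundant members only KLF10 and KLF5 had ranges that overlapped. In treated BVECs the order was KLF6, KLF10, KLF4, KLF5 and KLF3, and none of these neighbours overlapped. EGR1, KLF11, KLF9 and EGR3 overlapped with their neighbours in both groups, so no order among them is given.

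**Figure D1:**
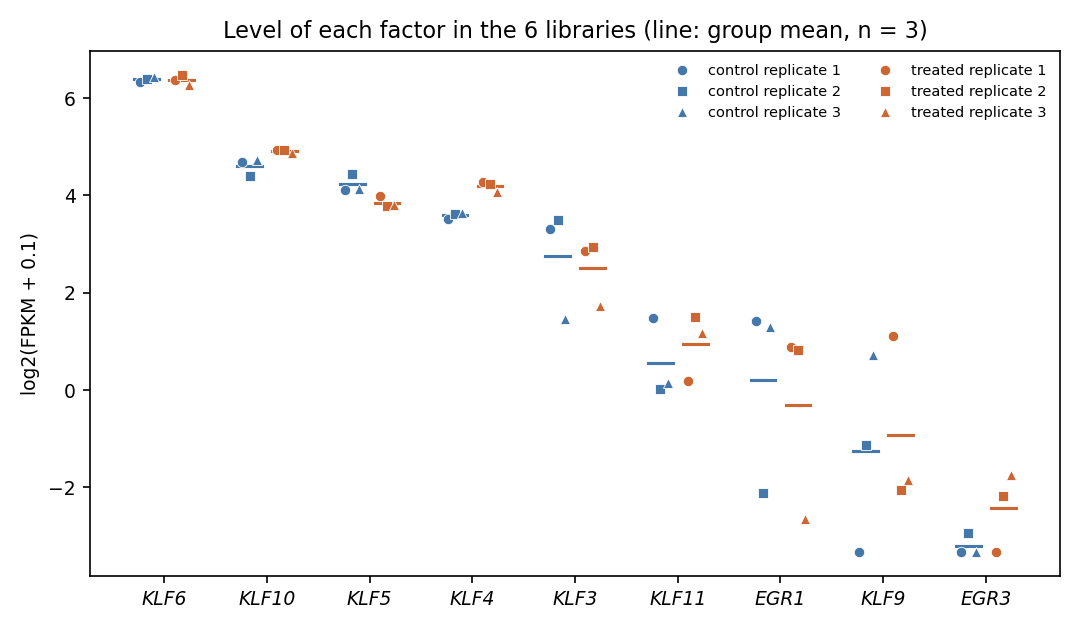
Level of each factor in each library as log2(FPKM + 0.1), with control libraries in blue, treated libraries in orange, marker shape for the replicate number and a line at the group mean (n = 3). KLF4 sits higher and KLF5 lower in all 3 treated libraries than in any control library, while KLF3, KLF11, EGR1 and KLF9 spread widely inside both groups.

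KLF4, a factor of epithelial differentiation and barrier formation, was the 1 member that rose. Its FPKM were 11.39, 12.27 and 12.38 in the control libraries and 19.20, 18.68 and 16.80 in the treated libraries. Every treated library was above every control library, and the libraries of a group lay close together. The means were 12.01 ± 0.543 and 18.2 ± 1.26 FPKM (SD, n = 3 each). On the log2(FPKM + 0.1) scale the change was 0.60 (SE 0.08, 95% interval 0.41 to 0.78, adjusted p = 0.00644 from limma), and it was called in each fit with 1 library left out. KLF4 is also a factor of endothelium, and the endothelial markers moved in different directions. Of 6 endothelial markers with a row, VWF and ESAM had a mean from 0.5 FPKM, and the summed level of the 6 was 1.83 to 2.05 FPKM in control and 3.17 to 3.48 FPKM in treated libraries. The defining marker PECAM1 was at 0.04 FPKM in 1 library and at 0 in the other 5, and TEK did not exceed 0.04 FPKM.

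KLF5, which drives growth of basal epithelial cells, moved the other way without passing the test. Its FPKM were 17.30, 21.47 and 17.56 in control and 15.71, 13.63 and 13.77 in treated libraries. All 3 treated values were below all 3 control values. The means were 18.8 ± 2.34 and 14.4 ± 1.16 FPKM (SD, n = 3 each), and the log2 fold change was -0.38 (SE 0.11, 95% interval -0.65 to -0.10). Its adjusted p was 0.0581 by limma, beside an unadjusted p of 0.0153. KLF5 counted as lower when values were rescaled to TPM (log2 fold change -0.47, adjusted p = 0.0213 from limma) or when the test was limited to features averaging 5 FPKM or more (adjusted p = 0.0486 from limma), with adjusted p between 0.0213 and 0.152 over all settings.

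KLF10, a TGF-beta-inducible repressor, stood at 25.67, 20.89 and 26.53 FPKM in control and at 30.64, 30.43 and 29.13 FPKM after treatment. The treated values were all higher and lay within a narrow band, whereas control replicate 2 was below the other control libraries. The means were 24.4 ± 3.04 and 30.1 ± 0.818 FPKM (SD, n = 3 each). The log2 fold change of 0.31 (SE 0.10, 95% interval 0.06 to 0.56) missed the threshold, with an adjusted p of 0.0795 from limma. It passed only after scaling by median-of-ratios size factors (log2 fold change 0.39, adjusted p = 0.0440 from limma, with 0.219 as the highest of any setting).

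KLF6, an injury-induced activator and the most abundant member, was at 80.76, 83.33 and 85.96 FPKM in control and at 82.77, 89.34 and 76.83 FPKM after treatment. The groups overlapped, and the treated libraries held both the highest and the lowest value. The log2 fold change was -0.01 (SE 0.07), and its 95% interval ran from -0.18 to 0.16. The missed threshold (adjusted p = 0.941 from limma) does not show that the groups were equal, and the interval gives the range of changes these libraries allow.

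Of the 8 members that reached a mean of 0.5 FPKM and were tested, 1 rose, 0 fell and 7 did neither at an adjusted p under 0.05. Over all 13144 tested features 24.4% were called, 8.59% higher and 15.8% lower, so the count of members is read against a background in which a call was common. At an unadjusted p under 0.05 the members held 3 genes, KLF4, KLF5 and KLF10, against 38.4% of all tested features, and those were also the 3 members whose groups did not overlap. Over all tested features 45.7% had no overlap, 17.4% with the treated libraries above, as for KLF4 and KLF10, and 28.3% with them below, as for KLF5. None of the 8 reached the study's own thresholds of a 2-fold change and an unadjusted p under 0.05, which 5.52% of tested features did, 2.24% higher and 3.28% lower. The median log2 fold change was 0.15 over the 8 members and -0.08 over all features. The share of lower calls among all called features was 64.7%, but 77.7% in TPM, 51.8% with size factors and 54.5% after quantile normalization, and the median over all features was then -0.17, -0.01 and -0.01.

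**Figure D2:**
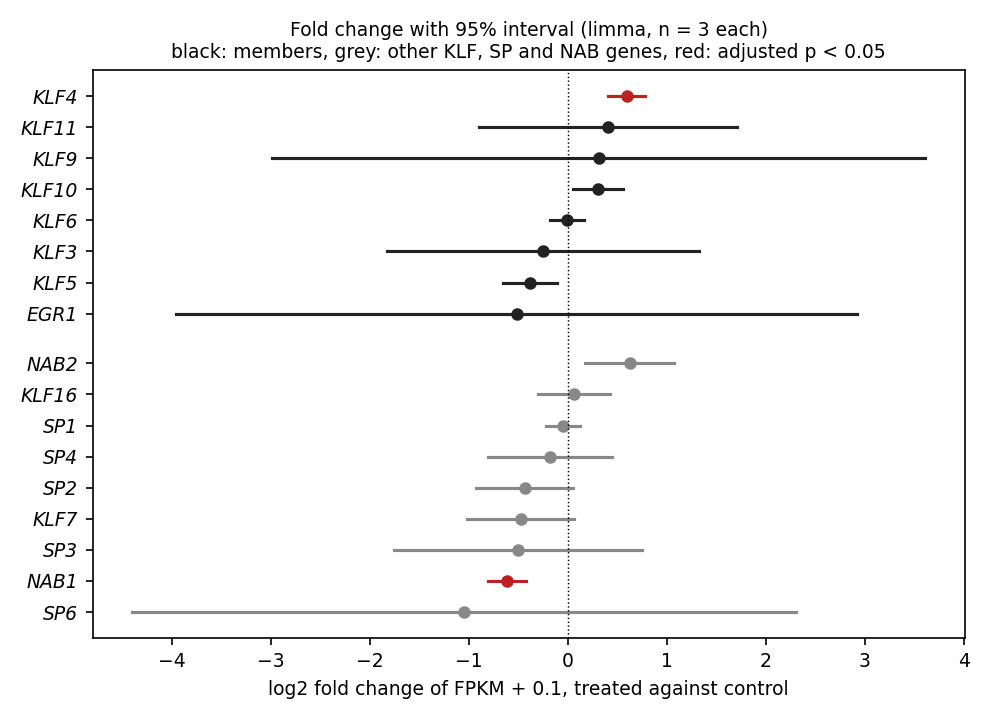
Log2 fold change of FPKM + 0.1 in treated against control BVECs with 95% intervals from limma (n = 3 each), for the 8 tested members in the upper block and the other KLF, SP and NAB genes in the lower block. KLF4 at 0.60 and NAB1 at -0.61 are drawn in red for an adjusted p under 0.05, and the intervals of KLF3, KLF9, EGR1 and SP6 are far wider than those of KLF4, KLF5, KLF6 and KLF10.

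The levels of KLF4 and KLF5 changed places between the groups. In the control libraries the ratio of KLF4 to KLF5 in FPKM was 0.658, 0.571 and 0.705, and in the treated libraries it was 1.22, 1.37 and 1.22. KLF5 was thus the higher of the pair in every control library and KLF4 in every treated library. The mean ratio was 0.645 ± 0.0678 in control and 1.27 ± 0.0863 in treated BVECs (SD, n = 3 each), a difference of 0.98 on the log2 scale. Because both genes are read in the same library, this ratio does not depend on a scaling factor common to the library, and over all alternative settings the difference stayed between 0.89 and 1.04. These ratios were computed after the values had been seen.

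All 6 ratios among KLF4, KLF5, KLF6 and KLF10 were compared between the groups. An exact permutation test of 3 libraries against 3 cannot give a two-sided p below 0.1, and 5 of the 6 ratios reached that smallest value (Benjamini-Hochberg adjusted p = 0.12 over the 6). The ratios share genes and are not independent. KLF4 and KLF10 were higher and KLF5 lower in every treated library. The outcome for KLF4 to KLF5 and KLF10 to KLF5 was therefore fixed by the values of the single genes. The ratio of KLF10 to KLF5 was 1.32 ± 0.303 in control and 2.10 ± 0.142 in treated BVECs, and that of KLF6 to KLF4 was 6.94 ± 0.150 and 4.56 ± 0.236 (SD, n = 3 each). KLF6 to KLF5 went from 4.48 ± 0.532 to 5.80 ± 0.671 and KLF6 to KLF10 from 3.46 ± 0.462 to 2.76 ± 0.157. In the ratio of KLF10 to KLF4 the groups overlapped, at 2.03 ± 0.292 and 1.65 ± 0.0721 (exact permutation p = 0.2, two-sided). The smallest of the 6 changes in mean log2 ratio was between KLF10 and KLF4, at -0.29.

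**Figure D3:**
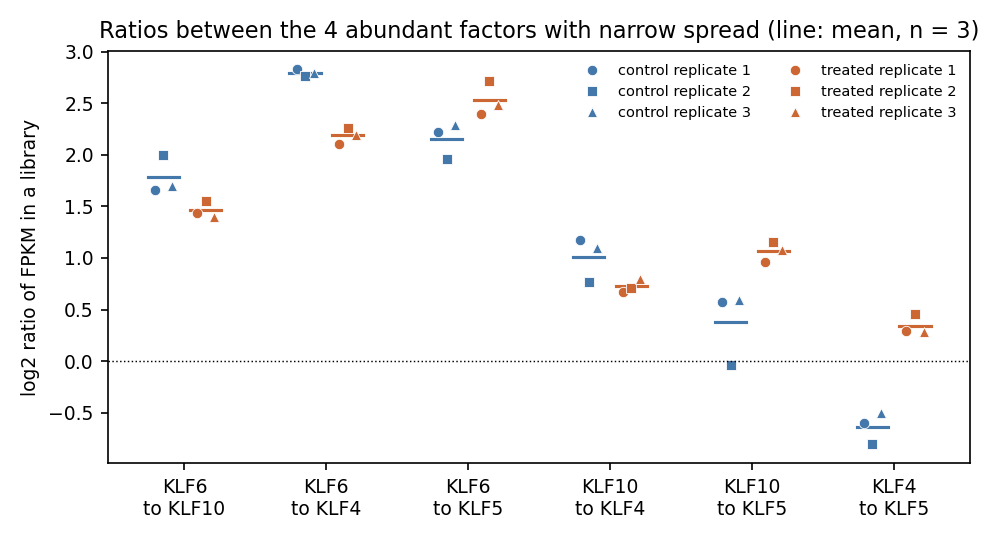
Log2 ratio of FPKM between pairs of the 4 abundant members with narrow spread, one point per library, control in blue and treated in orange, with a line at the mean (n = 3). The ratio of KLF4 to KLF5 lies below the dotted line of equal levels in all 3 control libraries and above it in all 3 treated libraries.

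As shares of the summed FPKM of the 9 members, KLF4 made up 7.99% ± 0.360 in control and 11.7% ± 0.313 in treated BVECs, and KLF5 12.5% ± 1.53 and 9.26% ± 0.834 (SD, n = 3 each). KLF6 made up 55.5% ± 1.77 and 53.3% ± 1.48, and KLF10 16.2% ± 2.05 and 19.4% ± 0.996. The summed FPKM was 150.21, 150.64 and 150.02 in control and 160.32, 164.31 and 142.35 in treated libraries, so the groups overlapped in the total and treated replicate 3 was the lowest of all. In bulk RNA of this kind, fewer cells of a type and less RNA per cell cannot be told apart.

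The remaining members varied between replicates by more than most features. KLF3, a repressor that works through CtBP, was at 9.80, 11.25 and 2.67 FPKM in control and at 7.15, 7.57 and 3.22 FPKM in treated libraries. Replicate 3 was the low library in both groups, and the groups overlapped. The means were 7.91 ± 4.59 and 5.98 ± 2.40 FPKM (SD, n = 3 each), with a log2 fold change of -0.25 (SE 0.64, 95% interval -1.83 to 1.32, adjusted p = 0.806 from limma). That value turned to 0.02, 0.12 and 0.14 without control replicate 1, control replicate 2 or treated replicate 3.

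KLF11, a relative of KLF10 that represses growth genes, was at 2.71, 0.91 and 1.01 FPKM in control and at 1.04, 2.74 and 2.16 FPKM in treated libraries. One control library was as high as the treated ones and one treated library as low as the control ones. The log2 fold change was 0.41 (SE 0.53, 95% interval -0.90 to 1.71, adjusted p = 0.610 from limma). The row holds 1 transcript assembled by StringTie and no Ensembl transcript.

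EGR1, the best known immediate early factor of the family, was at 2.58, 0.13 and 2.37 FPKM in control and at 1.75, 1.66 and 0.06 FPKM in treated libraries. Each group held 1 library near 0, control replicate 2 and treated replicate 3, so the groups overlapped, although the other 2 control values were above every treated value. Its log2 fold change was -0.52 with an SE of 1.39 and a 95% interval from -3.95 to 2.92 (adjusted p = 0.818 from limma), and it turned to 0.65 without treated replicate 3, 0.09 without control replicate 1 and 0.04 without control replicate 3. EGR3, a related factor known from T cells and muscle spindles, was at 0, 0.03 and 0 FPKM in control and at 0, 0.12 and 0.20 FPKM in treated libraries. It was below the filter and was not tested. A value of 0 in such a table can be a failed estimate, so EGR3 is described only as listed at or near 0.

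KLF9, a glucocorticoid-inducible factor, was at 0, 0.36 and 1.54 FPKM in control and at 2.06, 0.14 and 0.18 FPKM in treated libraries. One library of each group was above 1 FPKM and the others were low. The log2 fold change of 0.31 had an SE of 1.33 and a 95% interval from -2.98 to 3.61 (adjusted p = 0.887 from limma), and it was -0.72 without control replicate 1 and -0.70 without treated replicate 1. KLF9 has 2 rows. The one used holds a transcript assembled by StringTie, and the other, which holds the Ensembl transcript, was at 0.15 FPKM in control replicate 1 and at 0 in the other 5 libraries. When both rows were summed the log2 fold change was -0.13, so no direction is given for KLF9.

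The spread inside the groups can be put on a common scale by the ratio of the highest to the lowest FPKM + 0.1 within a group, taking the wider group. This ratio was 1.14 for KLF4, 1.16 for KLF6, 1.24 for KLF5 and 1.27 for KLF10, all below the median of 1.33 over the tested features. It was 2.78 for KLF11, 4.10 for KLF3, 11.7 for EGR1 and 16.4 for KLF9. Features as wide as EGR1 or wider made up 3.77% of those tested, and for KLF3 the share was 7.74%. A ratio of at least 3 was found in 3 of the 8 tested members and in 11.1% of all tested features. That share was 30.7% among features with a mean under 1 FPKM, 13.2% from 1 to 5 FPKM and 5.64% from 5 FPKM, and KLF3 was the only member from 5 FPKM with such a ratio.

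**Figure D4:**
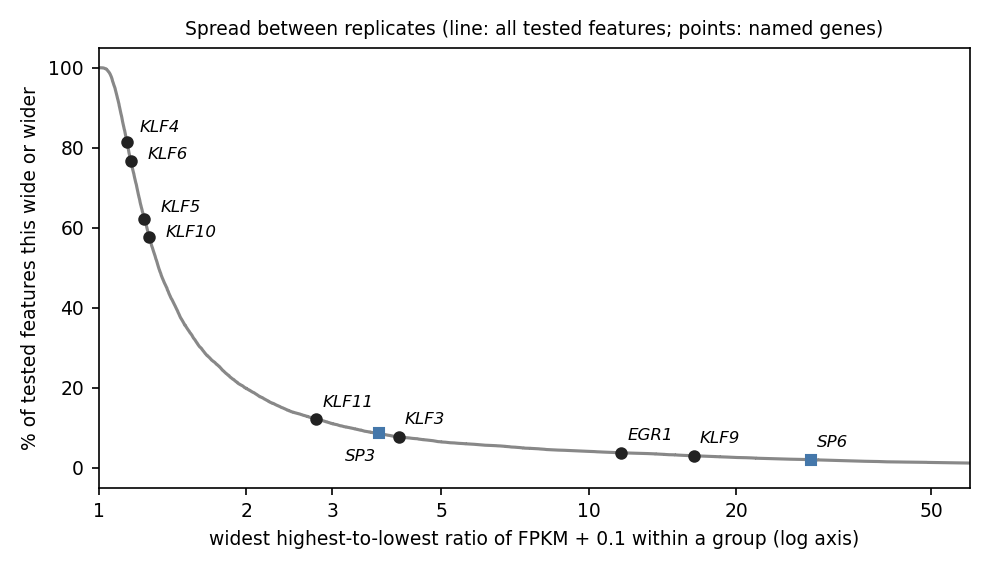
Share of the 13144 tested features (y axis, %) whose widest within-group ratio of highest to lowest FPKM + 0.1 is at least the value on the logarithmic x axis, with members as black circles and SP3 and SP6 as blue squares. KLF4, KLF6, KLF5 and KLF10 lie at ratios of 1.14 to 1.27, and EGR1 and KLF9 lie at 11.7 and 16.4.

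Low values in 1 library of each group were looked at further after the values of KLF3 and EGR1 had been seen. At least 2-fold below every other library in both control replicate 3 and treated replicate 3, as KLF3 was, stood 23 tested features. For control replicate 2 with treated replicate 3, the libraries low in EGR1, the number was 10. Each of the 9 possible pairings of a control with a treated library had 10 to 27 such features, 182 in all or 1.38% of those tested. KLF9 was high in control replicate 3 and treated replicate 1, as were 15 features.

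For each tested member, the features with the most similar pattern were found by the root mean square distance of log2(FPKM + 0.1), centred on each feature's mean, over the 6 libraries. For KLF4 these were RTN2 at a distance of 0.036 and NEIL1 at 0.040, for KLF5 PKDCC at 0.038 and GALNT10 at 0.044, and for KLF6 TMEM165 at 0.019 and SRP54 at 0.026. TBC1D30 at 0.044 was nearest to KLF10, followed at 0.045 by a feature that joins PLEKHN1 and KLHL17. The nearest to KLF3 were CYTH3 at 0.177 and FKBP9 at 0.178. FKBP9 had 81.89, 96.16 and 23.70 FPKM in control libraries against 80.16, 58.71 and 25.44 FPKM in treated ones and was low in the same libraries as KLF3. TRAF4 at 0.169 and HOXA3 at 0.213 were nearest to KLF11. TRAF4 had 48.30, 21.78 and 20.70 FPKM in control libraries against 24.53, 53.54 and 55.35 FPKM in treated ones, again with one library of each group on the side of the other. The features nearest to EGR1 and KLF9, ZNF583 and EHD1, were at distances of 0.668 and 0.768. These distances were largest for the members with the widest spread between replicates, so they do not rank how close the matches are. The features were picked by their pattern, so a pattern shared with the member was fixed by the choice.

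The gene ontology terms in the table were given for 7 of the 9 members, KLF9 and KLF11 having none. All 7 were annotated to nucleic acid binding and 6 to the nucleus. Positive regulation of transcription by RNA polymerase II was listed for KLF4, KLF5, KLF6, KLF10 and EGR1, and negative regulation for KLF3, KLF4, KLF5 and EGR1. KLF4 and KLF5, the pair that changed places, thus shared both annotations with EGR1.

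The other KLFs and the related SP factors, which bind the same GC-rich elements, had 12 of 19 symbols in the table, and 7 were tested. None of them rose or fell, where 24.4% of all tested features did. Of the 7, 0 had an unadjusted p under 0.05, against 38.4% of all features, and their median log2 fold change was -0.43. KLF7 had 1.18, 1.29 and 1.93 FPKM in control libraries against 1.03, 1.08 and 0.91 FPKM in treated ones, without overlap (log2 fold change -0.47, adjusted p = 0.173 from limma). SP1, the ubiquitous founder of the family, was at 7.97 ± 0.435 and 7.71 ± 0.204 FPKM (SD, n = 3 each), with a log2 fold change of -0.04. The log2 fold changes of SP2, SP4 and KLF16 were -0.43, -0.18 and 0.06. SP3 was at 2.62, 8.24 and 10.04 FPKM in control and at 3.97, 4.81 and 3.94 FPKM in treated libraries, so a single control library set its wide spread, and without control replicate 1 it was called at -1.09 (adjusted p = 0.0236 from limma). SP6, an epithelial factor, was at 2.37, 2.60 and 2.25 FPKM in control and at 3.6, 3.6 and 0.03 FPKM in treated libraries, and its log2 fold change of -1.05 became 0.56 without treated replicate 3 (adjusted p = 0.0431 from limma). SP2 was called without control replicate 3 (-0.64, adjusted p = 0.0333 from limma).

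NAB1 and NAB2 are corepressors that bind EGR proteins and limit their activity. NAB1 fell, from 7.91, 7.58 and 7.80 FPKM to 5.17, 5.32 and 4.67 FPKM (log2 fold change -0.61, SE 0.08, adjusted p = 0.0061 from limma), and it was called in each of the 16 alternatives run for it. NAB2, itself known as an EGR1 target, had control values of 4.47, 3.14 and 3.8 FPKM and treated values of 5.57, 5.09 and 7.11 FPKM. There was no overlap, but the log2 fold change of 0.63 had an adjusted p of 0.0558 from limma, 0.0469 with size factors and 0.0442 after quantile normalization. EGR2 did not exceed 0.15 FPKM.

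Genes that act upstream of the members were listed with earlier results of these data known, so their counts are descriptions. Over all tested features 8.59% rose, 15.8% fell and 38.4% had an unadjusted p under 0.05 by limma. Of 7 SRF and ternary complex factor genes, which control EGR1, 1 rose, 4 fell and 2 did neither, with a median log2 fold change of -0.52. ELK4, a ternary complex factor, fell from 5.36 ± 0.476 to 2.91 ± 0.108 FPKM, and the SRF coactivators MYOCD and MKL1 changed by -0.85 and 0.53 on the log2 scale. The row named MYOCD holds 7 transcripts, of which 1 is an Ensembl transcript, and whether all of them belong to MYOCD was not tested. With 1 library left out 2 genes of the list fell, except without control replicate 2, where 4 did. In the ERK5 and MEF2 route, which induces KLF2 and KLF4, 2 of 6 genes rose and 1 fell. MEF2D rose from 14.4 FPKM to 19.7 FPKM, with limma's adjusted p at 0.0509 and 0.0519 once replicate 1 of either group was left out, when no gene of the route rose, and the kinase MAP3K2 fell by 0.80 on the log2 scale. Of 9 genes of the ERK1 and ERK2 cascade, which feeds the EGR genes, 0 rose or fell by limma (1 fell without treated replicate 2) and 2 had an unadjusted p under 0.05.

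Corepressors and ubiquitin ligases act on KLF proteins. Their counts are read beside the 8.59% of all tested features that rose and the 15.8% that fell. Of 8 corepressors, 2 fell, among them NCOR1 by 0.50 on the log2 scale, and 6 did neither. With 1 library left out 1 to 3 fell, the lowest number without treated replicate 1. Of 5 ubiquitin ligases known to act on KLF proteins or close relatives, SMURF2 fell from 30.8 ± 1.23 to 22.6 ± 0.566 FPKM (SD, n = 3 each). NEDD4L fell too, by 0.21, a call kept in only 1 of the 6 fits with 1 library left out, that without treated replicate 2. Of the 5 ligases 0 rose and 2 fell, but 1 rose and 1 fell with size factors, and 1 rose and 2 fell after quantile normalization.

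Known targets of the members moved in both directions, in a table where 8.59% of all tested features rose and 15.8% fell. The lists share genes, so some calls count in more than 1 of them. The list of KLF5 and KLF6 shares CCND1 and CDKN1A with that of KLF2 and KLF4. It also shares PDGFA, PLAU and TGFB1 with that of EGR1, and TGFBR1, TGFBR2 and TGFB1 with the TGF-beta arm. Of 12 tested EGR1 targets 3 rose, 3 fell and 6 did neither, with PLAU, the urokinase protease, at 733 ± 52.8 and 1348 ± 80.7 FPKM (SD, n = 3 each). Of 7 KLF2 and KLF4 targets 1 rose, 2 fell and 4 did neither. CDKN1A, the p21 cell cycle inhibitor that KLF4 activates, rose from 12.81, 11.93 and 14.45 FPKM to 64.52, 254.07 and 65.65 FPKM (log2 fold change 2.97, adjusted p = 0.0164 from limma). Treated replicate 2 stood far above the others, and the adjusted p was 0.0549, 0.0510 and 0.0534 without control replicate 1, 2 or 3. CCND1, the cyclin D1 gene that KLF4 represses and KLF5 activates, fell from 41.7 ± 2.47 to 16.5 ± 0.866 FPKM (SD, n = 3 each). Of 13 KLF5 and KLF6 targets 7 rose and 4 fell, among them HMOX1, heme oxygenase, at a log2 fold change of 3.79 and the TGF-beta receptor TGFBR1 at -1.51. Of 10 genes of the TGF-beta arm to which KLF10 and KLF11 belong 1 rose and 4 fell, with the coreceptor TGFBR3 at -1.44, and of 7 glucocorticoid receptor genes listed with KLF9 3 rose and 2 fell, the receptor NR3C1 at -0.91. With 1 library left out, the EGR1 targets gave 1 to 3 that rose, the lowest without treated replicate 1, and 2 that fell. The KLF5 and KLF6 targets gave 4 to 7 that rose, with 4 without treated replicate 1 or any of the control libraries, and 3 to 4 that fell. In the TGF-beta arm 3 to 4 fell, and 1 gene rose when control replicate 3 or treated replicate 2 was the library left out, 0 otherwise.

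The other immediate early genes, a class to which EGR1 and EGR3 belong, gave 8 that rose, 1 that fell and 10 that did neither among 19 tested, with a median log2 fold change of 0.94 against -0.08 over all features. JUN, a subunit of AP-1, was at 6.25, 6.27 and 6.86 FPKM in control and at 79.36, 79.13 and 72.72 FPKM in treated libraries, beside at most 2.58 FPKM for EGR1 in any library. FOS, often measured together with EGR1, had 27.98, 9.54 and 28.77 FPKM in control libraries against 29.23, 9.08 and 9.80 FPKM in treated ones (log2 fold change -0.52, adjusted p = 0.586 from limma), low in the same control library and the same treated replicate 3 as EGR1, and in treated replicate 2 as well. FOS was named after its values had been seen. With each gene counted once, the 13 lists together held 100 tested genes. Of these 19 rose, 23 fell and 58 did neither, beside the 8.59% and 15.8% of all features.

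**Figure D5:**
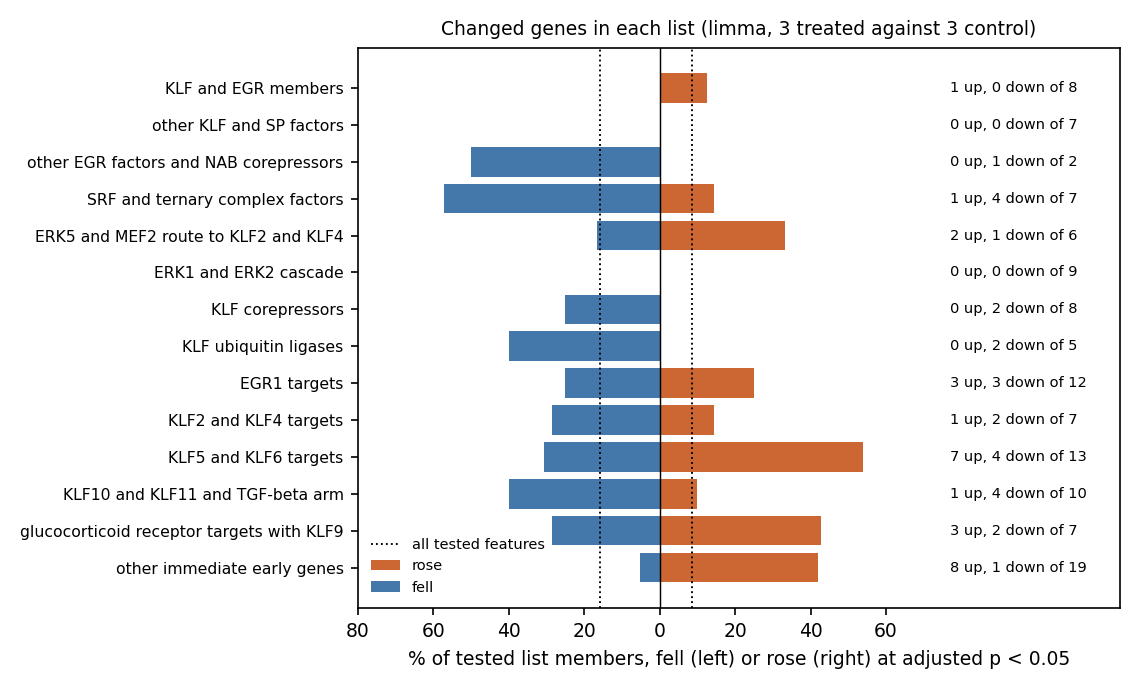
Share of the tested genes of each list (x axis, %) that fell, to the left in blue, or rose, to the right in orange, at an adjusted p under 0.05 from limma, with the counts at the right and dotted lines at the shares over all tested features (15.8% fell, 8.59% rose). The members have 1 gene up of 8, the other KLF and SP factors 0 of 7, and the other immediate early genes 8 up and 1 down of 19.

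The cells carried the markers of epithelium. Counts of changed markers are read beside the 8.59% of all tested features that rose and the 15.8% that fell. Summed over 12 epithelial markers the level was 5018 to 5448 FPKM in control and 5939 to 6232 FPKM in treated libraries, and of 11 tested 2 rose, 1 fell and 8 did neither. KRT18 and KRT8 were the ones that rose, by 0.31 and 0.32 on the log2 scale, calls that were lost after quantile normalization (adjusted p = 0.324 and 0.200 from limma). GRHL2, a transcription factor of epithelial cells, fell from 5.59 ± 0.138 to 4.06 ± 0.206 FPKM (SD, n = 3 each). Of the keratins of basal cells, KRT5 was at 19.4 ± 4.45 and 17.9 ± 1.26 FPKM (SD, n = 3 each), and the groups overlapped. KRT14 did not exceed 0.51 FPKM and was below the filter, though higher in every treated library. The 10 fibroblast markers summed to 62.0 to 67.5 and 60.9 to 63.2 FPKM, most of it COL3A1 at 52.0 ± 2.24 and 47.7 ± 0.580 FPKM (SD, n = 3 each), with PDGFRA at 0.25 FPKM or less. Of 7 fibroblast markers tested, COL1A1, COL1A2 and THY1 rose by 0.53, 0.61 and 0.58 on the log2 scale while staying below 5 FPKM, POSTN fell by 0.78, and 3 did neither. Without control replicate 1, treated replicate 1 or treated replicate 3 none of the 7 rose, and without control replicate 2 or 3 a single one did. The 8 immune markers with a row summed to 79.6 to 87.6 and 84.8 to 123 FPKM. Most of it was LCP1, at 63.9 ± 2.93 and 74.3 ± 19.5 FPKM, and AIF1, at 17.3 ± 1.85 and 20.7 ± 2.65 FPKM (SD, n = 3 each). AIF1 was higher in every treated library without being called, while CD3E was at 0.10 FPKM or less and CSF1R at 0.02 FPKM or less. The 4 smooth muscle markers summed to 154 to 179 and 168 to 179 FPKM. Nearly all of it was TAGLN, at 169 ± 13.0 and 174 ± 5.81 FPKM (SD, n = 3 each), with MYH11 at 0.05 FPKM or less. The part of these cell types in the values of the members was not tested. Over all features the control libraries summed to 343933 to 361055 FPKM and the treated ones to 372034 to 378772 FPKM. The median feature was at 2.74 to 2.86 FPKM in control and at 2.43 to 2.59 FPKM in treated libraries. The groups overlapped in neither, and the marker sums are to be read beside this. The libraries listed 1876 to 1992 features at 0.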

How the data were processed

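RNA of 3 control and 3 treated samples was sequenced. The authors deposited 1 table of FPKM values per feature, rounded to 2 decimals. Tools in the submitters' processing notes are HISAT2 2.0, StringTie 1.3.0 and Bowtie 0.12.2, with ARS-UCD1.2 as the build, whereas Cufflinks and edgeR appear in the methods of the paper. FPKM keep no counts, so the depth behind a value is unknown and no counting interval is given.

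The test was limma 3.58.1 in R 4.3.3 (lmFit, then eBayes with trend), run on log2(FPKM + 0.1), which understates the change of low genes. It took in 13144 features whose mean was at least 0.5 FPKM, with condition as the only term, two-sided, with Benjamini-Hochberg adjustment. An adjusted p under 0.05 counted as rose or fell. For a single value the exact permutation test of 3 against 3 cannot go below 0.1. Tables were joined in Python 3.11.15 (pandas 2.3.3) and plotted in matplotlib 3.10.9.

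The members and the lists were chosen with earlier results of these data known. The genes named were the members, the other KLF, SP, EGR and NAB genes above the filter, up to 4 called genes per list by size of change (the 2 most abundant where none was called), and the 2 features nearest in pattern to each member. Marker genes, and others marked as such, were added after their values were seen. Some genes under the naming rule are not reported here. A planned description of promoter motifs and zinc fingers was not made, since no sequence was used here.

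Alternatives were other pseudocounts and filters, TPM, size factors, quantile normalization, other moderation settings, a replicate block, summed rows and leaving out each library. On simulated data for 13144 genes, 80, 40, 56 and 76% of genes changed by -2, -1, 1 and 2 on the log2 scale were recovered, with 4 false calls. The simulation used normal noise and changed a far smaller share of genes than the 24.4% called in the data. Its rates are therefore not the power or the error rate of the test as run here.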

Additional observations from a re-analysis of the deposited data

How the results depend on the processing

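KLF4 kept its direction in all settings, with log2 fold changes from 0.51 to 0.67, and was called in 16 of 17. The number of members changed was 1, but 2 under the stricter filter (mean from 5 FPKM), 2 with TPM, 2 with size factors by the median of ratios and 0 with the replicate block, where the adjusted p of KLF4 was 0.0512. Leaving out 1 library left that number at 1, while the changed features over the whole table, 3201 at first, numbered 1662 to 2966 and the changed list genes, 42 at first, 31 to 39. With the replicate number as a block these counts were 847 and 23. Libraries of the same number did not deviate together (correlations of -0.012, 0.001 and 0.01), so the numbers were not taken as pairs, and a call lost there is not a weaker effect. KRT18 and KRT8 were not called with the block either (adjusted p = 0.06466 and 0.05433 from limma).

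Directions turned as follows. With size factors KLF6 was at 0.0697 and SP1 at 0.0325, and SP1 was at 0.0605 after quantile normalization. KLF16 was at -0.0236 with TPM and KLF9 at -0.13 with its rows summed. Leaving out 1 library gave -0.90 to 0.14 for KLF3, -0.0632 to 0.0454 for KLF6, -0.72 to 1.29 for KLF9, -1.68 to 0.65 for EGR1, -0.0516 to 0.13 for KLF16 and -1.85 to 0.56 for SP6. The cause was not tested. Of the values of tested members under the alternatives, 117 kept direction and side of the threshold, 12 turned, 3 passed the threshold and 1 lost it, and of 706 values of 45 other named genes 637 kept both, 59 lost the threshold, 4 gained it and 6 turned. The depth is unknown, and 3 libraries a group leave intervals wider than 1 log2 unit on either side of the estimate for KLF3, KLF9, KLF11 and EGR1.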
